A study of Mus musculus with 12 samples.

Results

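The change in gene expression of cortical interneurons between postnatal day 0 (P0) and postnatal day 10 (P10) was described from 3 arrays at each age, across the 19937 genes that had a probe set of their own on the array. The series held 12 arrays in 4 groups, and its other 6 arrays were of pyramidal cells at P0 and at P12. The interneurons were GFP+ cells sorted from cortices of Nkx2-1Cre;RCE:LoxP mice and the pyramidal cells GFP+ cells sorted from NexCre;RCE:LoxP mice, all with tissue labelled as cortex and strain as C57BL6. In each line the RCE allele gives GFP after Cre has removed a stop, so every cell that ever had Cre, and its progeny, stays labelled. Nkx2-1Cre marks the lineage of the medial ganglionic eminence, which holds the parvalbumin (PV+) and somatostatin (SST+) interneurons and also some cells of the oligodendrocyte lineage, and NexCre marks excitatory neurons through the Neurod6 (Nex) locus. The arrays of a group were labelled biological replicates A, B and C, and the number of animals behind an array is not stated in the sources used here. The methods give males for experiments in vivo without naming the animals of the arrays.

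Interneurons of the medial ganglionic eminence are born outside the cortex and migrate into it before birth. At P0 many of them have only just reached their layer, and their dendrites, axons and synapses are still to be built. Over the following days they extend axons, form inhibitory synapses, gain the channels that let them fire fast and with precision, and pass through a period of programmed cell death. Transcripts of migration and of the young neuron are known to give way over this time to transcripts of synaptic release, of membrane excitability and of energy supply.

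The values were log2 signals after RMA (robust multiarray average), so a difference of 1 is a 2-fold change. A change is P10 minus P0 on this log2 scale, and ± after a change is its standard error (SE) in the limma fit of all 12 arrays. Calls, either way, required both a fold over 2 and a p under 0.05 after Benjamini-Hochberg adjustment. The background of an array was the level under which 95% of 1206 probe sets for olfactory and vomeronasal receptors lay, at 7.20 to 7.27 on the interneuron arrays. Arrays of the same age correlated at 0.997 to 0.999 over all tested probe sets, arrays of different age at 0.960 to 0.966, and none stood apart. The median SD over genes was 0.065 among the P0 arrays and 0.056 among the P10 arrays, and the number of arrays limits the precision: an exact permutation of 3 against 3 has 0.1 as its smallest 2-sided p. Genes of the labelled cell type were high, while genes of other cells were also above background and are described below. Gad1, which encodes an enzyme that makes GABA, lay at 12.63 to 12.81 at P0 and at 13.16 to 13.30 at P10. Lhx6, a transcription factor gene of the lineage, lay at 12.90 to 12.94 at P0 and at 12.07 to 12.25 at P10.

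Between P0 and P10, 886 genes rose and 495 fell, which was 4.44% and 2.48% of the 19937 genes, and 18556 were not called. The genes that rose did so by a median of 1.41 and those that fell by a median of -1.23, against a median change of 0.0078 over all genes and a median SE of 0.069. Changes of 4-fold or more were seen in 164 of the genes that rose and in 35 of those that fell, and changes of 8-fold or more in 27 and in 5. Clone names and small RNA loci made up 18 of the genes that rose and 50 of those that fell and are only counted here. No gene that rose had overlapping arrays between the ages, and 1 gene that fell did, a clone transcript at the threshold. With no fold threshold, 4710 genes were higher and 4380 lower, or 23.6% and 22.0% of all genes. The counts given below for gene lists are to be read beside these shares of all genes. Since RNA of whole sorted populations was measured, fewer cells of a type and less RNA per cell cannot be told apart.

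**Figure D1:**
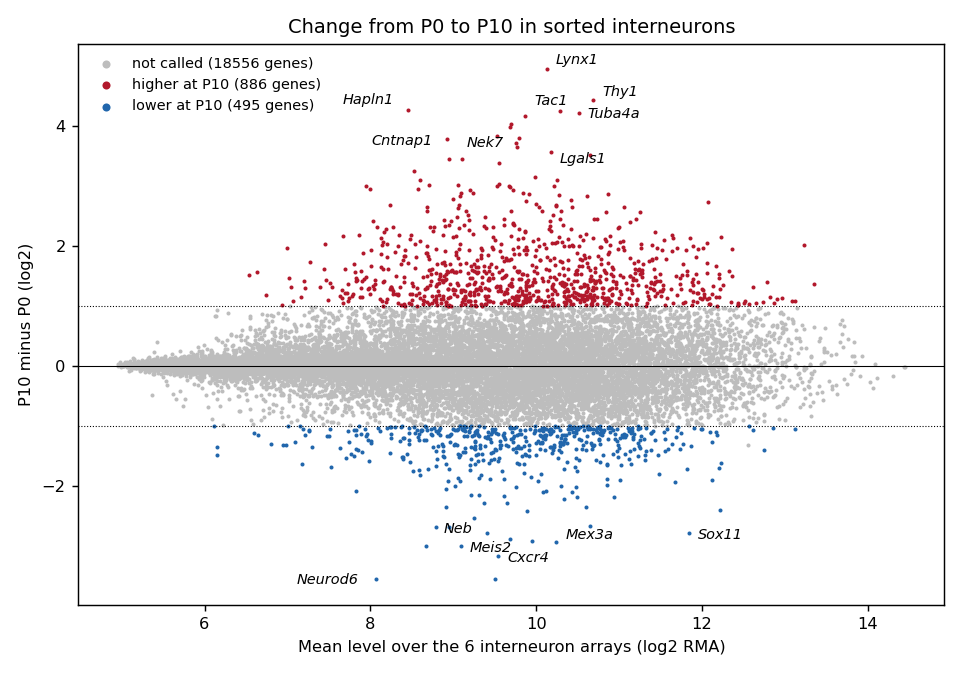
Change from P0 to P10 (y axis, log2) of each of 19937 genes against its mean level over the 6 interneuron arrays (x axis, log2 RMA), with genes higher at P10 in red, genes lower in blue and the 2-fold limits dotted. The upper arm reaches 4.95 for Lynx1, and Neurod6 lies lowest among the labelled genes at -3.56.

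The 5 genes taken as markers of this maturation moved far beyond the spread between arrays. All 5 are also among the most raised or most lowered genes of this same comparison. They were chosen with earlier results of these data known, so the size of their change is no independent support. Lynx1 (probe set 10429515) encodes a GPI-anchored protein that dampens nicotinic acetylcholine receptors. It read 7.73, 7.58 and 7.65 on the P0 arrays and 12.67, 12.48 and 12.67 on the P10 arrays, a rise of 4.95 ± 0.07 (adjusted p = 1.49e-13), or 30.9-fold. Thy1 (probe set 10584628), a surface glycoprotein gene of mature neurons, read 8.53, 8.69 and 8.16 at P0 and 12.81, 12.88 and 13.03 at P10, a rise of 4.45 ± 0.12. Tuba4a encodes an alpha-tubulin that lacks the terminal tyrosine of other alpha-tubulins. It read 8.18, 8.66 and 8.36 at P0 and 12.69, 12.56 and 12.62 at P10, a rise of 4.23 ± 0.10.

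Cxcr4, the receptor for the chemokine CXCL12 that guides migrating interneurons, went the other way, with 11.39, 11.15 and 10.86 at P0 and 7.88, 8.04 and 7.94 at P10, and fell by 3.19 (SE 0.11, adjusted p = 8.75e-11). Sox11, a transcription factor gene of newly born neurons, read 13.27, 13.21 and 13.26 at P0 and 10.50, 10.45 and 10.38 at P10. It fell by 2.80 (SE 0.06). For each of the 5 genes the ages were over 2 log2 units apart between their nearest arrays, and all 6 arrays were above background.

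The promoters of the most changed genes with a sequence at hand are shown because these genes moved the furthest and in opposite directions. The sequences are from RefSeq (GRCm38.p6) and run from 250 bases before to 50 bases after the transcription start, 5′ to 3′ on the strand of the gene. Capitals mark a GC box (GGGCGG or its complement CCGCCC) or a TATA box (TATAAA or its complement TTTATA).
Hapln1, raised, chr13:89540386-89540685, plus strand: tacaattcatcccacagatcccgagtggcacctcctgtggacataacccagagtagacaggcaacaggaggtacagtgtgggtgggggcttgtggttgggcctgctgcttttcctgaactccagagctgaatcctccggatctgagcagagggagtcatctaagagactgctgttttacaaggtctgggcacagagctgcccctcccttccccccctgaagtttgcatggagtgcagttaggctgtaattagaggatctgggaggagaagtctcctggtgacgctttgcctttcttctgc
Tuba4a, raised, chr1:75219245-75219544, minus strand: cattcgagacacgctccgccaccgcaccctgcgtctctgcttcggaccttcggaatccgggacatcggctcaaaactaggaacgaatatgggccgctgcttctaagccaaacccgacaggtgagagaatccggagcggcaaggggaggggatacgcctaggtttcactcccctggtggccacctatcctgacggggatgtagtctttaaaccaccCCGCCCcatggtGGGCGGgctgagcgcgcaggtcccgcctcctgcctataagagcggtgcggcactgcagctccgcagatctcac
Neurod6, lowered, chr6:55681214-55681513, minus strand: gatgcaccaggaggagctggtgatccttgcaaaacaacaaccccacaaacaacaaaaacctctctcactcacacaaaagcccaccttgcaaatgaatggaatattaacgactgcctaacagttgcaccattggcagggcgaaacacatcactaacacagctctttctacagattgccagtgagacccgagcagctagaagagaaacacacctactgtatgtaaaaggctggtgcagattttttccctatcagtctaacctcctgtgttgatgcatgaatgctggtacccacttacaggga
Cxcr4, lowered, chr1:128592250-128592549, minus strand: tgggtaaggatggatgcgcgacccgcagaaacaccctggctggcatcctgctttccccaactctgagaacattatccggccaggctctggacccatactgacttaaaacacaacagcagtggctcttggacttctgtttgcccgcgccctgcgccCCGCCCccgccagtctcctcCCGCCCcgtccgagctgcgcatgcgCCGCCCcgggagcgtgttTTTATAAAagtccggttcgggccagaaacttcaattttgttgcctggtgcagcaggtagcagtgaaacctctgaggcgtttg

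The promoters did not divide by direction of change in these letters. The window of Tuba4a held 24 CpG and 2 GC boxes and that of Cxcr4 20 CpG, 3 GC boxes and 1 TATA box, whose letters read on both strands and overlap. The windows of Hapln1 and Neurod6 held 3 CpG each and none of the motifs searched. The cAMP response element TGACGTCA was in none of the 4. Of all 32851 promoters in the table, 35.7% held a GC box, 13.6% a TATA box and 1.79% this element on either strand. Lynx1, Thy1 and Slc24a2 are named without a sequence. A comparison of promoter content between the genes that rose and those that fell is void, since only 79.3% and 73.3% of them had a promoter in the table.

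The 15 most raised genes stood for several kinds of function, from matrix and axon-glia contact to ion exchange, secreted proteins and lipid enzymes. Hapln1 encodes the link protein that ties hyaluronan to proteoglycans in perineuronal nets. It was not above background on any P0 array, with 6.37, 6.30 and 6.28, and read 10.76, 10.37 and 10.64 at P10, so it was at least 10.3-fold higher (adjusted p = 1.43e-12). Cntnap1 encodes Caspr, which joins axon and glia beside the node of Ranvier. It read 7.08, 7.11 and 6.91 at P0, also not above background, and 10.74, 10.76 and 10.97 at P10, at least 12.04-fold higher. Tac1, the gene of substance P, read 8.15, 7.71 and 7.47 at P0 and 12.09, 11.92 and 11.85 at P10 and rose by 4.17 ± 0.14. Slc24a2, a sodium, calcium and potassium exchanger gene, rose by 4.25 ± 0.10, with P0 arrays at 8.10 to 8.21 and P10 arrays at 12.28 to 12.60.

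Cemip, whose product degrades hyaluronan, rose by 4.04 ± 0.09, and Lpl, the gene of lipoprotein lipase, by 3.99 ± 0.08. Rbp4, a retinol carrier gene, rose by 3.85 ± 0.09 and Lgi3, a gene of a secreted leucine-rich repeat protein, by 3.80 ± 0.07. Mal2, a gene of membrane trafficking, rose by 3.73 ± 0.08 and Nceh1, a cholesterol ester hydrolase gene, by 3.53 ± 0.08. Nek7, the gene of a serine/threonine kinase that acts on microtubules, read 8.01, 7.89 and 7.93 at P0 and 11.76, 11.51 and 11.51 at P10, and rose by 3.65 ± 0.08. Lgals1, the gene of galectin-1, rose by 3.58 ± 0.07. In each of the 15 genes every P10 array lay above every P0 array, and each kept its call in all 18 alternative analyses.

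**Figure D2:**
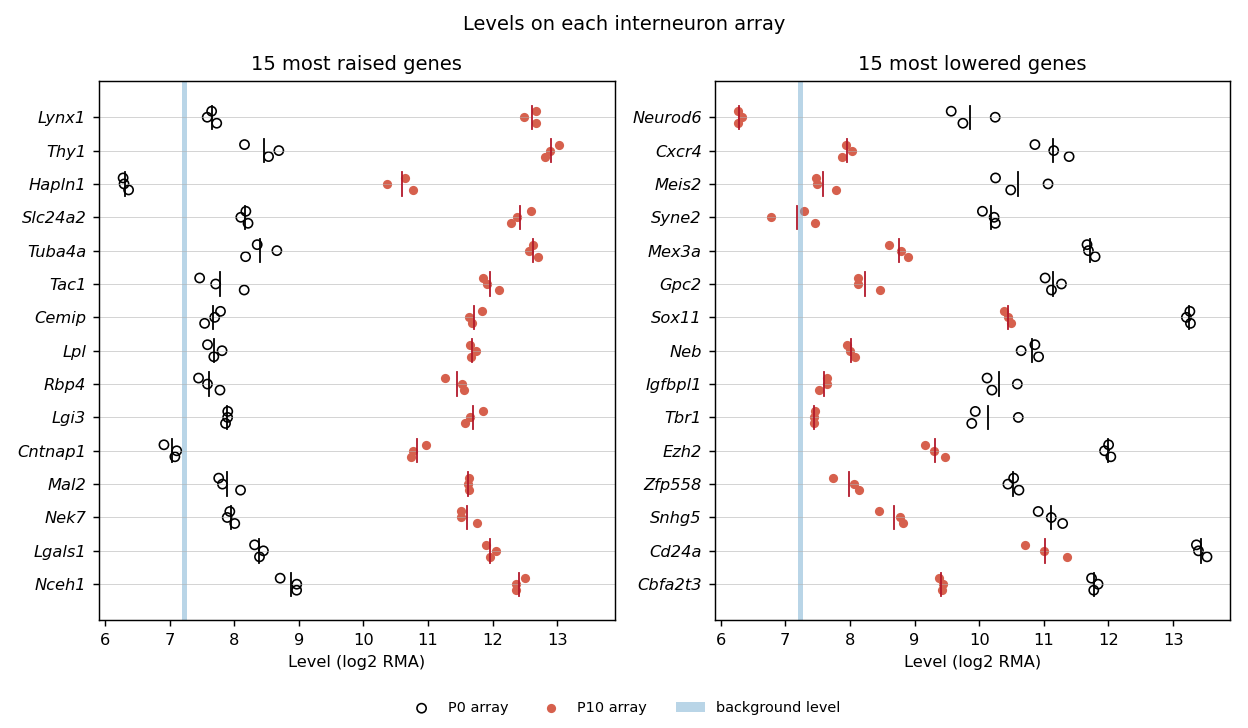
Level on each interneuron array (x axis, log2 RMA) of the 15 most raised and the 15 most lowered genes, with open circles for P0 arrays, filled circles for P10 arrays, vertical bars for the group means and the band of background levels from 7.20 to 7.27. The groups do not overlap in any row, and Hapln1, Cntnap1 and Neurod6 have an age at which no array is above background.

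Among the 15 most lowered named genes were those of transcription factors (Neurod6, Meis2, Sox11, Tbr1), of an RNA-binding protein (Mex3a) and of chromatin regulators (Ezh2, Cbfa2t3). Neurod6, a transcription factor gene of young excitatory neurons, read 9.75, 10.25 and 9.57 at P0 and 6.28, 6.33 and 6.27 at P10, where it was not above background, so it was at least 6.16-fold lower (adjusted p = 2.43e-10). Tbr1, another gene of excitatory neurons, read 9.89, 10.61 and 9.94 at P0 and 7.44, 7.44 and 7.45 at P10 and fell by 2.70 (SE 0.14). Array B held the highest P0 value of Neurod6, Tbr1 and Meis2. Meis2, a homeobox gene of the ganglionic eminences, read 10.49, 11.06 and 10.25 at P0 and 7.79, 7.50 and 7.47 at P10 and fell by 3.02 (SE 0.16). On the pyramidal arrays Meis2 was higher, at 12.64 to 12.86 at P0 and at 10.93 to 11.08 at P12.

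Ezh2, which encodes the histone H3 lysine 27 methyltransferase of the Polycomb complex PRC2, read 12.04, 11.94 and 12.00 at P0 and 9.48, 9.30 and 9.16 at P10 and fell by 2.68 (SE 0.09). Mex3a, an RNA-binding protein gene, fell by 2.95 (SE 0.07) and Syne2, which encodes a nuclear envelope protein that moves nuclei, fell by 3.002 (SE 0.16). Gpc2, a glypican gene of growing axons, fell by 2.90 (SE 0.13). Neb, the gene of nebulin, an actin filament protein best known from muscle, fell by 2.80 (SE 0.07). Igfbpl1, a gene related to IGF-binding proteins, fell by 2.70 (SE 0.13), and Snhg5, a host gene of small nucleolar RNAs, fell by 2.43 (SE 0.12). Zfp558, a zinc finger gene, fell by 2.55 (SE 0.14). Cd24a, a surface glycoprotein gene of immature neurons, fell by 2.41 (SE 0.16) and Cbfa2t3, a transcriptional corepressor gene, by 2.37 (SE 0.08). All 15 were called in all 18 alternative analyses.

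Among the called genes, 49 passed from no array above background at P0 to all 3 at P10, and 23 passed the other way. Of these, 34 and 9 were at least 2-fold from the background level. The counts depended on where background was set, with 18 and 13 at the 90th percentile and 161 and 59 at the 99th in place of the 95th. After Cntnap1 and Hapln1 the largest lower bounds among genes that appeared were those of Calb2, the calretinin gene, at 7.55-fold, and of Ankrd34c at 5.09-fold. Enpp6, a choline phosphodiesterase gene of newly formed oligodendrocytes, followed at 4.72-fold and Hpse, the heparanase gene, at 4.63-fold. Among genes that went under background, Igf2bp3, an RNA-binding protein gene of fetal tissues, had 3.12-fold as its lower bound and Dbf4, a regulator of replication origins, 2.50-fold. Pvalb, which encodes the calcium buffer parvalbumin, was not above background at P0 and read 7.998, 7.613 and 7.881 at P10. It was at least 1.51-fold higher, and with a fitted change of 0.99 (adjusted p = 7.12e-07) it stayed just under the fold threshold, which it passed without P0 array C or P10 array B, at 1.01 and at 1.10.

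Potassium channels were the part of the excitability genes with the largest share of calls. Of 12 genes for Kv1 and Kv3 channels and their beta subunits, which set the threshold and the speed of spiking, 8 rose and none fell, with a median change of 1.28. Kcnab1, an auxiliary subunit gene, read 8.31, 8.26 and 8.16 at P0 and 11.16, 11.19 and 11.22 at P10 and rose by 2.94 ± 0.07. Kcna1 and Kcna2, axonal Kv1 genes, rose by 2.31 ± 0.09 and by 2.09 ± 0.08, while Kcnc1, a Kv3 gene of fast-spiking cells, had 0.58 and was not called. Of 34 other potassium channel genes 12 rose and none fell (median 0.73), led by Kcnip4, a modulator of Kv4 channels, with 2.76 ± 0.09, and by Kcnh1 with 1.99 ± 0.10. Hcn2, a pacemaker channel gene, rose by 1.64 ± 0.05, as the only called gene of 4 in its list, and Hcn4 had -0.49.

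Sodium and calcium channel genes divided. Of 9 sodium channel genes Scn2b (2.30 ± 0.10) and Scn1a (1.12 ± 0.10) rose. Scn3a, the form of fetal brain, read 10.94, 10.81 and 10.97 at P0 and 9.89, 9.87 and 9.94 at P10 and fell by 1.01, on the edge of the fold threshold, and its call was lost without P0 array A, P0 array C, P10 array A or P10 array B and after a second quantile normalization. Scn8a and Scn2a had 0.80 and 0.90 and were not called. Of 16 calcium channel genes none rose, and Cacna1h, a low-threshold T-type channel gene, fell by 1.06 (SE 0.08), a call lost without P10 array A at -0.98, while Cacna1a, the P/Q-type channel gene of fast release, had 0.90 at an adjusted p of 6.13e-07 and a fold under 2. With no fold threshold 5 of these 16 were higher and 2 lower.

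Of 10 pump and exchanger genes 4 rose and none fell (median 0.81), and all 10 had a change above 0. Atp2b2, a plasma membrane calcium pump gene, read 10.53, 10.63 and 10.47 at P0 and 12.66, 12.72 and 12.83 at P10, a rise of 2.19 ± 0.06, and Slc8a2, a sodium-calcium exchanger gene, rose by 1.48 ± 0.08. Slc12a5 encodes KCC2, the exporter that lowers chloride in neurons. It read 10.97, 11.01 and 10.99 at P0 and 12.29, 12.21 and 12.31 at P10 and rose by 1.28 ± 0.06. Slc12a2, the gene of the chloride importer NKCC1, had -0.45 at an adjusted p of 6.18e-05 and a fold under 2. Slc4a10, a sodium-bicarbonate transporter gene, rose by 1.61 ± 0.08. Of 18 calcium buffer and sensor genes 9 rose and none fell (median 1.03), with 2.14 ± 0.07 for Hpca, the gene of hippocalcin, and 1.79 ± 0.24 for Calb1, the calbindin gene.

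More genes of GABA as a transmitter, and of the receptors for it, rose than fell. Of 6 genes for its synthesis, packaging, uptake and breakdown 4 rose and none fell (median 1.34). Abat and Aldh5a1, the genes of the enzymes that break GABA down, rose by 1.96 ± 0.06 and by 1.51 ± 0.06. Slc32a1, which encodes the vesicular GABA transporter, rose by 1.28 ± 0.09, while Gad1 had 0.54. Of 13 GABA receptor and postsynaptic genes 5 rose and none fell. The most raised were Gabra4 and Gabrd, genes of subunits found in extrasynaptic receptors, with 2.999 ± 0.08 and 2.59 ± 0.07. Gabra2 and Gabra5, subunit genes already strong in the young brain, had 0.87 and 0.47 and were not called.

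Glutamate receptors showed few calls. Of 16 ionotropic genes 2 rose, both NMDA receptor subunits, Grin2d with 1.71 ± 0.10 and Grin2a with 1.38 ± 0.12. Grin2b had 0.25 and Gria2, an AMPA receptor subunit gene, -0.23. Of 9 metabotropic receptor and Homer genes limma and SAM called none at the fold threshold, with 5 higher and 4 lower at an unadjusted p under 0.05. The counts were also 5 and 4 at an adjusted p under 0.05 with no fold threshold, against 23.6% and 22.0% of all genes. Grm5 had 0.45.

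Of 37 release genes 12 rose and none fell (median 0.60), and of 32 genes of synaptic organizers and scaffolds 5 rose and 1 fell (median 0.39). Syt2, the fast calcium sensor gene of PV+ terminals, read 7.80, 7.78 and 7.65 at P0 and 10.52, 10.19 and 10.41 at P10 and rose by 2.63 ± 0.09. Cplx1, a complexin gene, rose by 2.13 ± 0.06. Snap25 and Syt1, core genes of fusion, were already at 13.20 to 13.46 at P0 and had 0.76 and 0.67. Of the organizers, Lgi2 and Lgi1, genes of secreted synaptic proteins, rose by 1.93 ± 0.06 and by 1.71 ± 0.10, and Cbln2 by 1.72 ± 0.13. Cbln1, of the same cerebellin family, fell by 1.15 (SE 0.09). Dlg4, the gene of PSD-95, had 0.28.

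Of 27 neuropeptide and related genes 15 rose and 1 fell (median 1.31). Tac1 was the most raised, followed by Crhbp, which encodes a protein that binds corticotropin-releasing hormone. Crhbp read 7.96, 7.87 and 7.76 at P0 and 11.36, 11.27 and 11.12 at P10 and rose by 3.39 ± 0.11. Penk, the enkephalin precursor gene, rose by 2.88 ± 0.08. Sst, the somatostatin gene, was already at 12.54 to 12.80 at P0 and rose by 1.36 ± 0.15. Nxph2, a neurexophilin gene, fell by 1.03 (SE 0.15), and its call was lost without P0 array A or P10 array A, at -0.82 and at -0.98. Vip was not above background at either age.

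In the axon and cytoskeleton, single genes moved far while most of their families did not. Of 11 tubulin genes 3 rose and none fell, with Tuba8 at 1.66 ± 0.11 behind Tuba4a, while Tuba1a, the main alpha-tubulin gene of young neurons, had -0.17 and Tubb3 -0.07. Of 24 microtubule-associated genes 4 rose and 1 fell. Besides Nek7 the most raised was Map1a, the late partner of Map1b, with 2.07 ± 0.06, and Dcx, the doublecortin gene of migrating neurons, fell by 1.06 (SE 0.08). Map2 and Mapt had -0.68 and -0.03. None of 22 growth cone and actin genes was called by limma or by SAM, with 5 higher and 9 lower at an unadjusted p under 0.05. At an adjusted p under 0.05 with no fold threshold 5 were higher and 7 lower, against 23.6% and 22.0% of all genes. Gap43 had 0.60 and Marcks -0.89.

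Of 8 intermediate filament genes 2 rose and 1 fell (median 0.08). Nefl, the light neurofilament gene, read 8.59, 9.28 and 8.82 at P0 and 11.69, 11.44 and 11.62 at P10 and rose by 2.68 ± 0.14, and Nefh, the heavy one, rose by 1.94 ± 0.09, while Nefm had 0.11. Vim, the gene of vimentin, which progenitors and glia use, fell by 2.18 (SE 0.14). Of 14 genes of the axon initial segment and node 3 rose and none fell. Cntnap1 led, Cntnap2, its partner at the juxtaparanode, rose by 1.15 ± 0.07, and Ank3 and Nfasc, which build the initial segment, had -0.34 and 0.48.

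**Figure D3:**
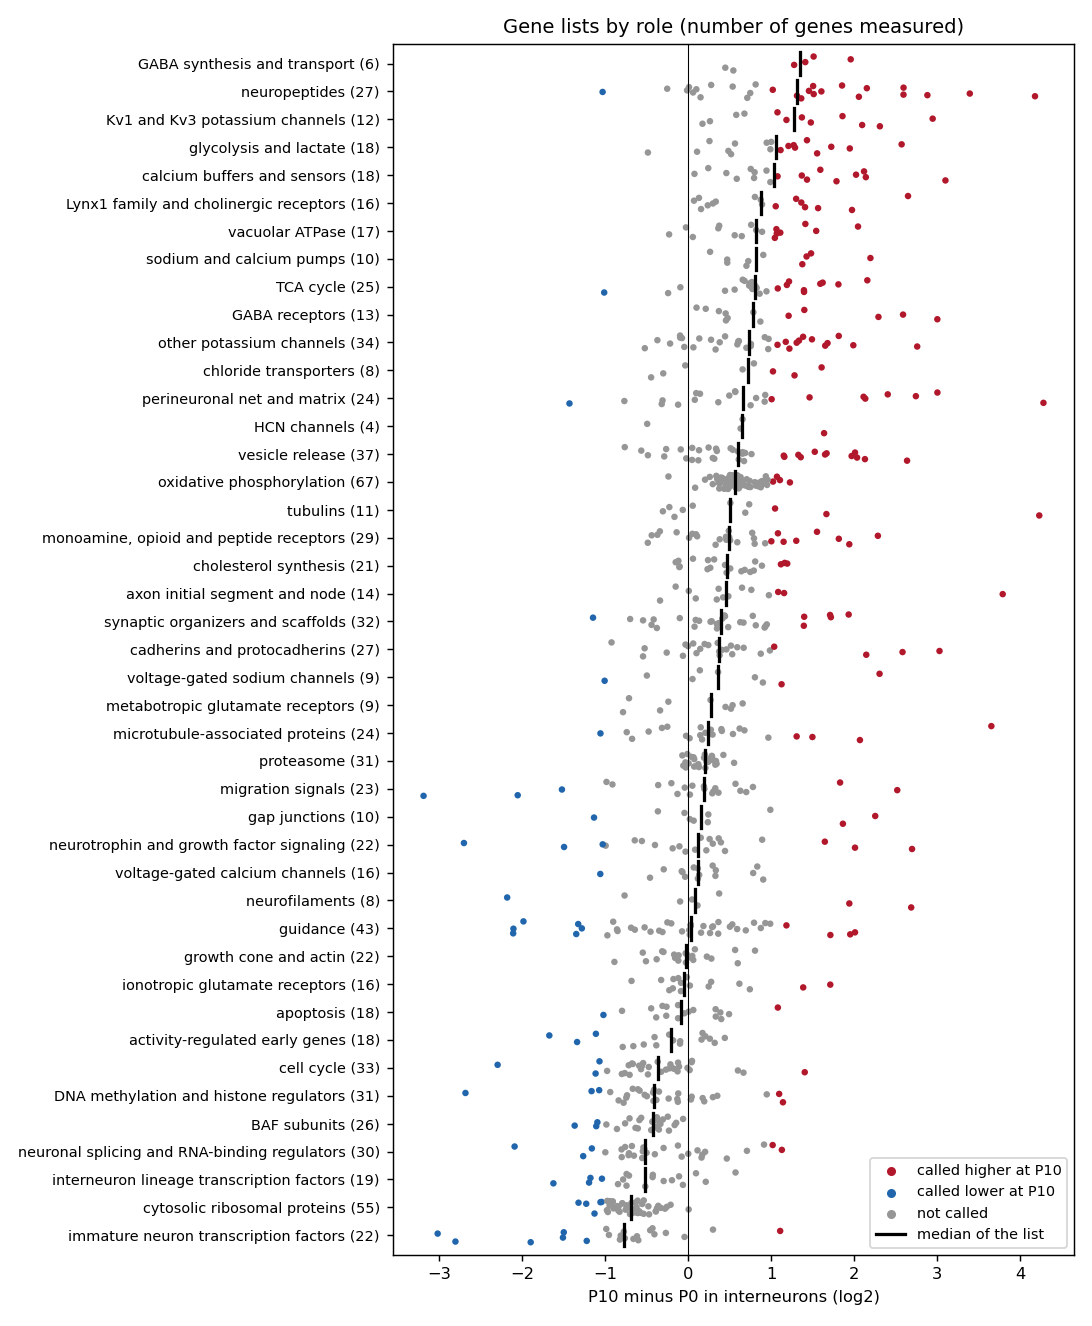
Change from P0 to P10 in interneurons (x axis, log2) of every measured member of the gene lists by role (rows, with the number of genes measured), with genes called higher in red, called lower in blue and the list median as a black bar. Medians run from -0.77 for transcription factors of immature neurons to 1.34 for GABA synthesis and transport, against 0.0078 over all genes.

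Of 22 transcription factor genes of young neurons 6 fell and 1 rose (median -0.77), and 20 of 22 had a change below 0, against 52.3% of all genes with a change above 0. Sox4, which acts with Sox11, read 11.68, 11.89 and 11.86 at P0 and 9.97, 9.85 and 9.92 at P10 and fell by 1.90 (SE 0.07). Bcl11b, the gene of CTIP2, had -0.81 at an adjusted p of 4.16e-08 with a fold under 2. Id4, an inhibitor of bHLH factors, rose by 1.11 ± 0.09.

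Of 19 transcription factor genes that specify interneurons of the ganglionic eminences 4 fell and none rose (median -0.52). Dlx2 read 13.098, 13.002 and 13.008 at P0 and 11.238, 11.456 and 11.547 at P10 and fell by 1.62 (SE 0.14), and Dlx5 fell by 1.19 (SE 0.17). Lhx6 had -0.74 (adjusted p = 2.07e-05) and Nkx2-1 itself, which cortical interneurons shut off when they leave the eminence, lay at 8.96 to 9.08 at P0 and at 8.48 to 8.59 at P10, with -0.52.

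Migration and guidance genes moved in both directions. Of 23 migration genes 3 fell and 2 rose. Ackr3, the second receptor of CXCL12, read 10.02, 10.04 and 9.75 at P0 and 7.87, 7.96 and 7.82 at P10 and fell by 2.05 (SE 0.08), beside Cxcr4, and Nrp1, a semaphorin receptor gene, fell by 1.52 (SE 0.12). Slit2, a repellent gene, rose by 2.52 ± 0.13. Erbb4, the neuregulin receptor gene of these interneurons, was at 13.34 to 13.42 at P0 and at 13.23 to 13.29 at P10, with -0.13. With no fold threshold the count of this list was 11 higher and 6 lower.

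Of 43 guidance genes 6 fell and 4 rose. Sema4c and Plxnb1, the genes of a semaphorin and of a plexin, fell by 2.11 (SE 0.08) and by 2.10 (SE 0.10), and Efnb2, an ephrin gene, by 1.98 (SE 0.07). Sema5a and Sema3e rose by 2.01 ± 0.07 and by 1.95 ± 0.08, and Dcc, a netrin receptor gene, had -0.52. Cadherins moved one way only in their calls, with 4 of 27 higher and none lower. Cdh18 rose by 3.03 ± 0.08, Cdh12 by 2.58 ± 0.09 and Cdh7 by 2.14 ± 0.15, all type II cadherins, and Celsr3, a cadherin gene of axon guidance, had -0.92.

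Most calls among matrix genes were rises. Of 24 genes 8 rose and 1 fell (median 0.66). Behind Hapln1, Hpse was at least 4.63-fold higher and Sparcl1, which encodes the synapse-promoting protein hevin, rose by 2.74 ± 0.09. Vcan, the versican gene of the young matrix, read 12.23, 12.24 and 12.33 at P0 and 11.20, 10.63 and 10.68 at P10 and fell by 1.43 (SE 0.13). Acan, the aggrecan gene of perineuronal nets, had 0.75 with a fold under 2. Of 10 connexin and pannexin genes 2 rose. Gjd2, the connexin of electrical synapses between interneurons, rose by 1.86 ± 0.08, and Gjc3, a connexin of oligodendrocytes, by 2.25 ± 0.15, while Gjc1 fell by 1.13 (SE 0.10).

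Of 22 growth factor and receptor genes 3 rose and 3 fell. Ret, the receptor gene of the GDNF family, read 7.73, 7.65 and 7.80 at P0 and 10.35, 10.34 and 10.58 at P10 and rose by 2.69 ± 0.07. Igf1 rose by 2.01 ± 0.09, while Igf1r, the gene of its receptor, read 11.59, 11.47 and 11.60 at P0 and 10.02, 10.06 and 10.10 at P10 and fell by 1.49 (SE 0.06). This ligand and its receptor moved in opposite directions. Ntrk2, the BDNF receptor gene, had -0.03, and Bdnf was not above background at either age. Of 18 apoptosis genes 1 rose and 1 fell, Cycs, the cytochrome c gene, with 1.08 ± 0.07 and Mcl1, which protects from apoptosis, with -1.02. These shares, 5.56% each, lay near the 4.44% and 2.48% of all genes. The call of Mcl1 was lost without P0 array C or P10 array B, and Bcl2 had -0.12.

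Of 16 genes of cholinergic receptors, acetylcholinesterase and relatives of Lynx1, 7 rose and none fell (median 0.88), and all 16 had a change above 0. Ache, the gene of the enzyme that ends cholinergic signals, read 9.11, 9.14 and 9.07 at P0 and 11.75, 11.78 and 11.73 at P10 and rose by 2.65 ± 0.06, and Ly6e, of the Lynx1 family, rose by 1.97 ± 0.10. Chrna7, a nicotinic receptor gene, rose by 1.36 ± 0.10 and Lypd6, another Lynx1 relative, by 1.41 ± 0.10. Of 29 monoamine, opioid and peptide receptor genes 8 rose and none fell (median 0.49). Sstr4, a somatostatin receptor gene, rose by 2.28 ± 0.12, Htr1b, a serotonin receptor gene, by 1.94 ± 0.17, Oprd1, the delta opioid receptor gene, by 1.81 ± 0.16 and Oxtr, the oxytocin receptor gene, by 1.55 ± 0.18.

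Many genes of energy supply rose. Of 18 glycolysis genes 9 rose and none fell (median 1.06), with 2.57 ± 0.07 for Eno2, the neuronal enolase gene, and 1.95 ± 0.07 for Aldoa, while Hk1 had -0.48. Of 25 genes of the TCA cycle and its feeders 9 rose (median 0.81), with Got1 at 2.16 ± 0.08 and Fh1 at 1.81 ± 0.12. Idh2 fell by 1.01, a call lost without P0 array A, P0 array B or P10 array B. Cs, the citrate synthase gene, had 0.86 with an SE of 0.04. Of 67 genes for oxidative phosphorylation 4 passed the fold threshold, or 5.97%, against 4.44% of all genes. A change above 0 was seen in 66 of 67 (median 0.56), and 65 were higher at an adjusted p under 0.05 with no fold threshold, against 23.6% of all genes. Ndufs8 and Uqcr11 had the largest changes, 1.22 ± 0.07 and 1.10 ± 0.07, and Atp5g2, at -0.24, was the member below 0. Of 17 vacuolar ATPase genes 7 rose and none fell (median 0.82), led by Atp6v1g2, a neuronal subunit gene, with 2.04 ± 0.09 and by Atp6v1c1 with 1.54 ± 0.07.

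Ribosomal protein genes went the other way. Of 55 measured genes of cytosolic ribosomal proteins 5 fell and none rose, and 54 had a change below 0 (median -0.68). All 54 were lower at an adjusted p under 0.05 with no fold threshold, against 22.0% of all genes. Rps15a fell by 1.32 (SE 0.11) and Rps12 by 1.23 (SE 0.08), and Rpl27 had 0.01. These genes have many near-identical copies in the genome, and 25 of 80 listed had no probe set of their own. Limma and SAM called none of 31 proteasome genes at the fold threshold, with 17 higher and 0 lower at an unadjusted p under 0.05 (median 0.20). The counts were also 17 and 0 at an adjusted p under 0.05 with no fold threshold, against 23.6% and 22.0% of all genes. Of 21 genes of cholesterol synthesis 3 rose, among them Hsd17b7 with 1.19 ± 0.14 and Ebp with 1.16 ± 0.10, and Hmgcs1 had 0.46.

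Chromatin and cell cycle genes had medians below 0. All 26 measured genes of BAF chromatin remodeler subunits had a change below 0 (median -0.42), and 3 passed the fold threshold. With no fold threshold 24 were lower at an adjusted p under 0.05, against 22.0% of all genes. Actl6a, the subunit gene of progenitors, fell by 1.37 (SE 0.09) and Dpf1, a subunit gene of neurons, by 1.09 (SE 0.06), while Actl6b, the neuronal counterpart of Actl6a, had -0.16. Smarce1 fell by 1.11 (SE 0.05). Of 31 genes for DNA methylation and histone regulators 3 fell and 2 rose (median -0.41). Kdm6b, an H3 lysine 27 demethylase gene, fell by 1.16 (SE 0.05), beside Ezh2, and Eed, a further PRC2 gene, had -0.94. Dnmt3a, the de novo DNA methyltransferase gene of maturing neurons, rose by 1.14 ± 0.08 and Hdac11 by 1.09 ± 0.08, while Dnmt1 had -0.78. Without P0 array C Hdac11 had 0.998 and was not called.

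Of 33 cell cycle genes 3 fell and 1 rose (median -0.37), or 9.09% and 3.03%, against 2.48% and 4.44% of all genes. Mcm7, a replication helicase gene, read 10.53, 10.65 and 10.39 at P0 and 8.25, 8.18 and 8.26 at P10 and fell by 2.29 (SE 0.12), and Ccnb2 fell by 1.11 (SE 0.06), while Ccne1 rose by 1.40 ± 0.07. Mki67 and Top2a, which mark dividing cells, lay at 7.93 to 7.97 and at 7.46 to 7.53 at P0, just above background, and had -0.71 and -0.48. Of 30 splicing and RNA-binding genes 3 fell and 2 rose (median -0.51). Ptbp1, the splicing repressor gene of progenitors, fell by 1.26 (SE 0.07), and Ptbp2 and Srrm4, splicing genes of young neurons, had -0.65 and -0.80. Mbnl2, a splicing gene of the mature brain, rose by 1.13 ± 0.07 and Cpeb1, a translation regulator gene, by 1.02 ± 0.09. Cpeb1 was not called without P0 array A, at 0.97, without P10 array C, at 0.95, or after median centring, at 0.99.

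Early response genes are induced by neuronal activity and also by tissue dissociation. Of 18 such genes 3 fell and none rose (median -0.21), and with no fold threshold 8 were lower and 3 higher. Egr1 read 10.30, 10.05 and 10.64 at P0 and 9.11, 8.87 and 9.01 at P10 and fell by 1.34 (SE 0.16). Nr4a3 fell by 1.67 (SE 0.09), and Fos, with 9.28, 8.96 and 9.71 at P0 and 8.72, 8.39 and 8.48 at P10, had -0.79. In pyramidal cells 8 of these 18 genes rose and 1 fell, against 5.99% and 3.12% of all genes there, and the difference between the changes was called lower in interneurons for 11 of 18, against 2.59% of all genes. The cells had gone through papain digestion and sorting before RNA was taken, and the part of these steps was not tested.

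Genes of other cells were read beside these results. Of 16 pyramidal genes 5 fell and 2 rose, the latter Nrgn and Camk2a, and the summed linear signal of the list was 11725 to 14582 at P0 and 10102 to 10844 at P10, against 38212 to 57158 on the pyramidal arrays. Slc17a7, the vesicular glutamate transporter gene, lay at 7.86 to 8.33 at P0 and at 8.09 to 8.22 at P10. Cux2, a gene of upper-layer neurons that some interneurons share, fell by 1.24 (SE 0.06). Neurod1 and Eomes were not above background. The part of excitatory cells in the falls of Neurod6, Tbr1 and Meis2 was not tested.

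Of 13 genes of myelinating oligodendrocytes 5 rose and none fell, all 13 had a change above 0, and the summed signal was 3156 to 3405 at P0 and 7924 to 10579 at P10. Mag, a myelin adhesion gene, read 7.45, 7.44 and 7.61 at P0 and 9.74, 9.19 and 9.09 at P10, highest on array A, and rose by 1.84 ± 0.13. Enpp6 also had its highest value on array A, and Mbp, which encodes myelin basic protein, had 0.90. Opalin, Ermn and Aspa, which mark mature oligodendrocytes, were not above background at either age. Of 12 genes of oligodendrocyte precursors 2 rose and 2 fell, with a sum of 16776 to 19986 at P0 and 15016 to 21584 at P10. On the pyramidal arrays this sum was lower, at 6676.3 to 6940.3 at P0 and 3384.5 to 3599.6 at P12. Pdgfra, the PDGF receptor gene of these precursors, fell by 1.34 (SE 0.23), Cspg4, the NG2 gene, by 1.00 and Gpr17 rose by 1.10, while Olig2 had 0.05 and Sox10 -0.01. The call of Gpr17 was lost without P10 array A, at 0.85, and that of Cspg4 without P0 array B, P10 array B or P10 array C, at -0.92, -0.83 and -0.94, and after a second quantile normalization, at -0.998. Cntnap1 also rose in pyramidal cells, by 3.64, with a difference of 0.14 that was not called. Gjc3 was above background on no pyramidal array. The part of oligodendrocyte cells in the change of other genes, Gjc3 and Cntnap1 among them, was not tested.

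Of 16 astrocyte genes 3 rose, among them Slc4a4 with 2.48 ± 0.08 and Atp1b2 with 1.37 ± 0.07, and the sum was 7799 to 8690 at P0 and 11792 to 12496 at P10, with Aqp4, Gja1 and Gjb6 not above background. Of 14 microglia and macrophage genes Cd68 fell by 1.48 (SE 0.11) and none rose, while with no fold threshold 4 were higher and 1 lower, and Aif1, Itgam, P2ry12 and Ctss were not above background. No gene of 12 endothelial genes was called by limma or SAM, with 1 higher and 1 lower at an unadjusted p under 0.05, and Cdh5 and Kdr were not above background. The counts were also 1 and 1 at an adjusted p under 0.05 with no fold threshold, against 23.6% and 22.0% of all genes. Of 15 mural and fibroblast genes only Cspg4, shared with the precursor list, fell. A list of 12 genes stood for interneurons from the caudal eminence. Crh rose, although above background on 1 P10 array alone, as did Calb2, and Npas1 fell by 1.04, a call lost without P10 array A at -0.99. With no fold threshold 2 of the 12 were higher and 5 lower. Vip, Sp8 and Adarb2 were not above background, and the sum was 14579 to 15069 at P0 and 13593 to 15106 at P10.

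**Figure D4:**
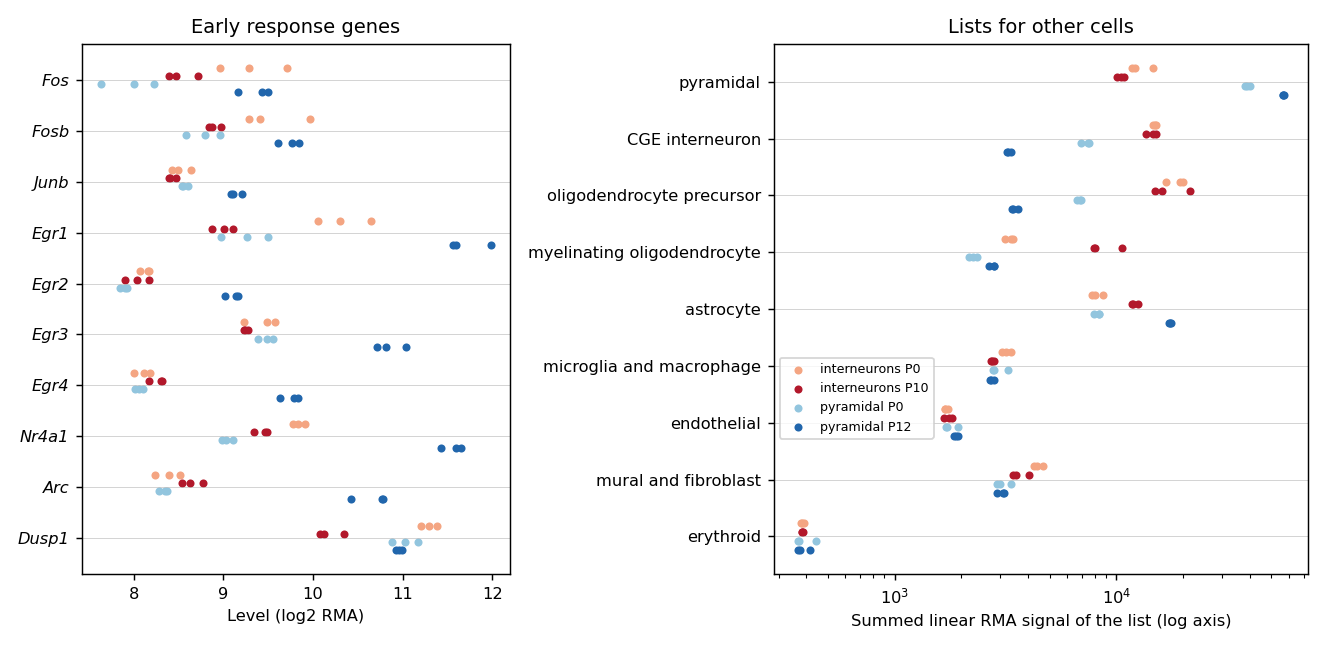
Left, level of 10 early response genes on each of the 12 arrays (x axis, log2 RMA); right, summed linear RMA signal of the lists for other cells on each array (x axis, log scale), with points for arrays colored by group. Egr1 lies lower at P10 than at P0 in interneurons, and the list of myelinating oligodendrocytes runs from 3156 to 3405 at P0 and from 7924 to 10579 at P10.

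The change in interneurons was set beside that of pyramidal cells from P0 to P12, which shares no array with it. The older ages differ by 2 days, so a difference of the changes holds this gap too. Of the 886 genes that rose in interneurons 504 (56.9%) also rose in pyramidal cells, which is 42.2% of the 1195 that rose there. Of the 495 that fell 256 (51.7%) also fell in pyramidal cells, which is 41.1% of 623. Of all genes, 5.99% rose and 3.12% fell in pyramidal cells. There were 11 genes that rose in interneurons and fell in pyramidal cells, and 4 that did the opposite. Across genes, which are not independent replicates, the 2 sets of changes correlated at r = 0.668. The difference of the changes was called higher in interneurons for 450 genes and lower for 517, or 2.26% and 2.59% of all genes.

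**Figure D5:**
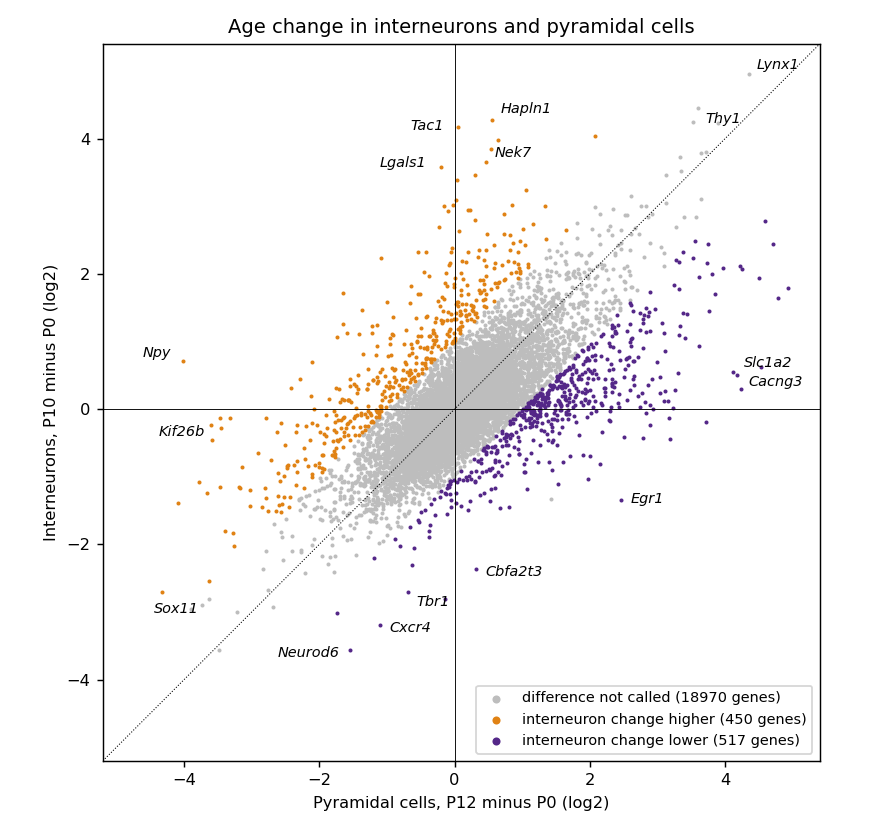
Change of each gene in interneurons from P0 to P10 (y axis, log2) against its change in pyramidal cells from P0 to P12 (x axis, log2), with the line of equal change dotted and genes whose difference was called in color. Lynx1 and Thy1 lie above the line by 0.59 and 0.84, under the fold threshold of the difference. Tac1 and Hapln1 are high in interneurons and at 0.04 and 0.55 in pyramidal cells, where no array had them above background, and Egr1 is low in interneurons and high in pyramidal cells.

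Of the genes that rose in interneurons the difference was called higher for 191, lower for 58 and not called for 637, and of those that fell it was called lower for 62, higher for 29 and not called for 404. The most changed genes divided by it. Lynx1 rose by 4.36 in pyramidal cells, Thy1 by 3.61, Tuba4a by 3.90 and Lgi3 by 3.72, and for none of these was the difference called. The differences of Lynx1 (0.59) and Thy1 (0.84) had an adjusted p under 0.05 and a fold under 2. Tac1 was above background on no pyramidal array, with a fitted change of 0.04 there and a difference of 4.13, and Lgals1 had -0.20, a difference of 3.77. Hapln1 (difference 3.73), Lpl (3.34), Rbp4 (3.31), Nek7 (3.19) and Cemip (1.96) also rose further in interneurons. Hapln1 and Nek7 were above background on no pyramidal array, so their differences are set against background signal and give no exact size. Among the lowered genes Sox11, Mex3a, Gpc2, Syne2 and Ezh2 fell in both populations with no difference called. Sox11 (difference 0.84), Mex3a (0.94) and Gpc2 (0.84) still fell less in interneurons, at an adjusted p under 0.05 and a fold under 2. Cxcr4 (-2.08), Neurod6 (-2.02), Tbr1 (-2.01), Neb (-2.66) and Cbfa2t3 (-2.69) fell further in interneurons. Neurod6 is the locus that carries the Cre of the pyramidal mice, so its pyramidal level is that of an altered locus.

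The 8 largest differences on each side often rested on the pyramidal side. Npy, the neuropeptide Y gene, had 0.71 in interneurons, under the fold threshold, and fell by 4.02 in pyramidal cells. Ptprz1, a receptor phosphatase gene, and Kif26b, a kinesin gene, had -0.24 and -0.13 in interneurons and changes of -3.60 and -3.47 in pyramidal cells, where both fell. Sema3c, a semaphorin gene, rose by 1.71 in interneurons and fell by 1.65 in pyramidal cells, so that it was called in opposite directions. Crhbp was above background on no pyramidal array. On the other side, Cacng3, an AMPA receptor auxiliary gene, had 0.29 in interneurons and rose by 4.24 in pyramidal cells, and Slc1a2, a glutamate transporter gene, had 0.51 and rose by 4.17. Gfra2, a neurturin receptor gene, had -0.19 and rose by 3.72, and Brinp3 had 0.55 and rose by 4.12. Pamr1 was above background on no P0 array of either population and rose in pyramidal cells. Cadps2 had -0.44 and rose by 3.18, and Nrn1, not above background in interneurons, rose by 3.18. Egr1 fell in interneurons and rose by 2.46 in pyramidal cells.

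Of 27 neuropeptide genes the difference was higher in interneurons for 10 and lower for 4, of 24 matrix genes for 10 and 1, of 6 GABA genes for 4 and 0 and of 13 myelinating oligodendrocyte genes for 5 and 0. Of 32 synaptic organizers it was higher for 0 and lower for 7. Over all genes it was called higher for 2.26% and lower for 2.59%. The medians of several lists lay close in both populations. They were 1.06 in interneurons and 0.85 in pyramidal cells for glycolysis, 0.56 and 0.41 for oxidative phosphorylation, 0.82 and 0.82 for the vacuolar ATPase, and -0.68 and -0.67 for ribosomal proteins. Slc12a5 rose further in pyramidal cells, by 2.79, with a difference of -1.51. Grin2a also rose further there (difference -1.47) and Grin2d further in interneurons (1.33).

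The genes that changed were longer than genes at large. The median genomic span was 33.9 kb in the genes that rose and 31.7 kb in those that fell, against 21.5 kb in the 14338 genes above background at either age and 17.7 kb in all genes with a span in RefSeq. A span was found for 99.6% or more of each set.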

How the data were processed

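Cortices were dissociated with papain, GFP+ cells were sorted, and their total RNA was amplified and hybridised to Affymetrix Mouse Gene 1.0 ST arrays, 3 for each of 4 groups. The deposited values are log2 signals that the authors obtained by RMA, which corrects background, quantile-normalizes and summarises probes. Quantile normalization gives all arrays one distribution and so cannot show a shift common to most genes. The software version and genome build behind them are not given in the sources used here.

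Of 28192 probe sets 22961 had a gene symbol in the platform annotation, 21640 a single one, 1321 several and 5231 none. Through Entrez identifiers, 21553 single-symbol probe sets matched the RefSeq table (GRCm38.p6), which changed 0 symbols. Each of 19937 genes was described by its probe set of highest mean over the 12 arrays (954 genes had more than 1). Limma 3.58.1 in R 4.3.3 was fitted to the 4 groups with empirical Bayes variances (8 residual degrees of freedom), Benjamini-Hochberg adjustment ran over the 22961 probe sets, with calls set at a fold over 2 and an adjusted p under 0.05. The same fit gave the interneuron change minus the pyramidal change. The scripts were tested on simulated data. Figures were drawn with matplotlib 3.10.9.

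A lower bound ("at least") is the mean of the group above background against the mean of the higher of the background level and the gene's own signal on each array of the other group.

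Named were the 5 markers, the 15 most changed genes each way (called, arrays not overlapping, without clone names and small RNA loci), up to 2 called members each way and up to 2 further members of each gene list, and the 8 largest differences each way. Further genes appear where a marker of another cell or an appearance from background is described. The members and the gene lists were chosen with earlier results of these data known, and lists are described by counts and medians. Alternatives were SAM (the test of the study's methods, with 20 permutations), the 6 interneuron arrays alone, a variance trend, a replicate block, the dropping of dim probe sets, the use of all probe sets or of 1 per gene, median centring, a second quantile normalization, other thresholds and each array left out. List counts under these alternatives were added after seeing the data. The arrays were labelled biological replicates, with no statement of separate litters or animals, so p-values measure the spread between these arrays.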

Additional observations from a re-analysis of the deposited data

Results flagged for a closer look

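Among the markers, the most changed genes and the largest differences, 28 genes had a change in interneurons that differed from that in pyramidal cells. The test was limma's test of the difference (adjusted p under 0.05 and over 2-fold). Further named genes outside these sets also passed it, among them Kcnab1 at 2.75 and Calb1 at -3.14, and are not listed here. Each difference is interneuron change minus pyramidal change on the log2 scale, and the older ages are P10 and P12. Tac1, Crhbp, Hapln1 and Nek7 were above background on no pyramidal array and Nrn1 on no interneuron array, and Pamr1 (P0 in both populations), Neurod6 (interneurons at P10) and Zfp558 (pyramidal cells at P12) had an age with no array above background. The differences of these genes are set against background signal and give no exact size.

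Higher in interneurons were the peptide genes Npy at 4.73 and Tac1 at 4.13, the peptide-binding Crhbp at 3.35, and the matrix and lectin genes Hapln1 at 3.73 and Lgals1 at 3.77. The hyaluronidase-like Cemip had 1.96. The receptor and guidance genes Ptprz1 and Sema3c both had 3.36. Kif26b had 3.34, Lpl 3.34, Rbp4 3.31 and Nek7 3.19. Igfbpl1, at 1.62, and Zfp558, at 1.08, were lowered in interneurons by less than in pyramidal cells.

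Lower in interneurons were the transcription regulators Meis2 at -1.28, Tbr1 at -2.01, Neurod6 at -2.02, Cbfa2t3 at -2.69 and Egr1 at -3.80. The chemokine receptor gene Cxcr4 had -2.08 and Neb -2.66. Genes of synapses and growth factor signals followed, with Nrn1 at -3.30, Slc1a2 at -3.66, Cadps2 at -3.62, Gfra2 at -3.91 and Cacng3 at -3.94. Brinp3 had -3.57 and Pamr1 -3.91.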

How the results depend on the processing

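No called named gene changed direction under any setting in which it was fitted, and the direction of named genes without a call was not checked. The balance of calls turned in 4 lists once the fold threshold was dropped: migration genes went from 2 higher and 3 lower to 11 and 6, microglia genes from 0 and 1 to 4 and 1, caudal eminence genes from 2 and 1 to 2 and 5, and calcium channels from 0 and 1 to 5 and 2 (3 and 1 with a fold over 1.5). The counts of 886 genes higher and 495 lower stayed within 1.5 times under all settings but those of the fold threshold, at 844 to 886 and 491 to 550 under the others with all arrays and at 865 to 913 and 478 to 513 with each interneuron array left out. With a fold over 1.5 they were 2015 and 1667, and with no fold threshold 4710 and 4380. The difference counts of 450 and 517 ranged from 437 to 473 and from 514 to 532 with each interneuron array left out, and no pyramidal array was left out. They were 1077 and 1487 with a fold over 1.5 and 2387 and 4143 with no fold threshold. Median centring gave 844 higher and 550 lower, and for the difference 485 and 476. A second quantile normalization gave 502 and 456.

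Genes that passed from or to background numbered 49 and 23. Of these, 34 and 9 were at least 2-fold from background. With background at the 90th percentile they numbered 18 and 13, and at the 99th 161 and 59.

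Same-letter deviations of the P0 and P10 arrays correlated at -0.147 to 0.180 over 3 pairs. So few pairs cannot decide whether a shared letter marks a shared day or litter. The letters were not used as pairs in the main fit. With the replicate block the counts were 886 and 495, and 450 and 517 for the difference.

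Of 149 called named genes 10 lost a call in some setting at the same thresholds, each near a 2-fold change: Scn3a, Cacna1h, Nxph2, Mcl1, Idh2, Hdac11, Cpeb1, Npas1, Gpr17 and Cspg4. None of the 30 most changed genes and markers did, with an adjusted p of at most 8.24e-06. Outside this count is Crh, a called gene above background on 1 array, which the dropping of dim probe sets removed. Genes near background have compressed changes, and 3 arrays per group limit the precision.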

Other observations

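Probe sets outside the 19937 genes also changed. Of 5231 probe sets with no symbol 55 were higher and 112 lower at P10, and of 1321 with several symbols 24 were higher and 53 lower.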
